A study of Homo sapiens with 6 samples.

Results

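Subunits of the mitochondrial respiratory chain are described here in TE-1, a human line of oesophageal squamous cell carcinoma, after stable knockdown of EIF3C. The genes were chosen by name and role, as 40 nuclear-encoded subunits of complexes II, III, IV and V and the electron carrier cytochrome c. The rule uses no measured value, but the choice was made with earlier results of these data known. A probe set assigned to that gene alone was found for 38 of the 40, among 18132 genes so measured, and the remaining members, SDHB and UQCRFS1, were not analysed here. All 38 passed the filter on dim genes.

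The series holds 6 Affymetrix arrays of total RNA, 3 from cells with stable EIF3C knockdown and 3 from parental TE-1 cells as control, all grown in RPMI-1640 medium with foetal bovine serum. EIF3C encodes a subunit of eIF3, the initiation factor that recruits ribosomes to mRNA. The knockdown cells are described as 1 clone, the control cells carried no stated construct, and the replicates are labelled biological without a statement of separate cultures, so the knockdown and the clone cannot be told apart and the p-values measure only the spread between these samples. The target checked the labels: on its 3 bright probe sets, which EIF3CL shares, the signal in knockdown was 21.5% to 22.6% of control.

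Complex II, succinate dehydrogenase, passes electrons from succinate to coenzyme Q. Complex III passes them on to cytochrome c, complex IV uses them to reduce oxygen, and the proton gradient so built drives complex V, the ATP synthase. Complexes III, IV and V are each built from subunits of the nuclear and the mitochondrial genome, and the genes described here are the nuclear part. The arrays measured their transcripts only, not protein, assembly or respiration.

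Values are log2 signals as deposited, and a change is the knockdown mean minus the control mean on that scale. Over the 6 arrays the median signal of all probe sets lay between 6.09 and 6.11. The subunits were bright, with means from 8.74 to 12.77, and 78.9% of genes had a lower mean than the dimmest of them. Among epithelial markers of the cell line, KRT8, KRT18, KRT19, EPCAM and CDH1 had control means between 11.21 and 13.52, while the squamous keratins KRT5 and KRT14 had 5.91 and 5.85, below the median of all genes, 6.70. None of the fibroblast, leukocyte or endothelial markers reached that median.

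Subunits of the 4 complexes were more often lower than higher in the knockdown cells. Each gene was read from its brightest probe set, and other probe sets are given for many genes but not all. Among those left out of the text, SDHA, UQCRB, ATP5F1B and ATP5F1C each had 1 probe set that was not called. Of 38 subunits, 22 were lower, 7 were higher and 9 did not pass the threshold of an adjusted p of 0.05. Among the 13599 genes tested, 34.1% were lower and 32.4% higher, 66.5% in all. Among the 3825 genes at least as bright as the dimmest subunit, 38.3% were lower and 45.7% higher. The median change was -0.11 over the subunits, -0.03 over all genes tested and 0.04 over the equally bright genes.

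The changes ran from -0.80 for UQCRQ to 0.30 for ATP5PB. On the brightest probe set of each gene, no subunit changed 2-fold, against 4.82% of all genes, while dimmer probe sets of ATP5MG and ATP5MC3 fell further. The groups did not overlap for 31 of 38 subunits, against 70.3% of all genes. The 85 non-human control probe sets of the array differed between the groups by up to 0.22 in size. Of the 38 subunits, 16 (42.1%) were called with a change beyond that, against 50.7% of all genes, and the other 13 called subunits lay within it. Of the 38 subunits, 14 were lower beyond it, against 25.74% of all genes. ATP5PB and ATP5MC1 were the only higher subunits beyond it, 2 of 38, against 24.97% of all genes.

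**Figure D1:**
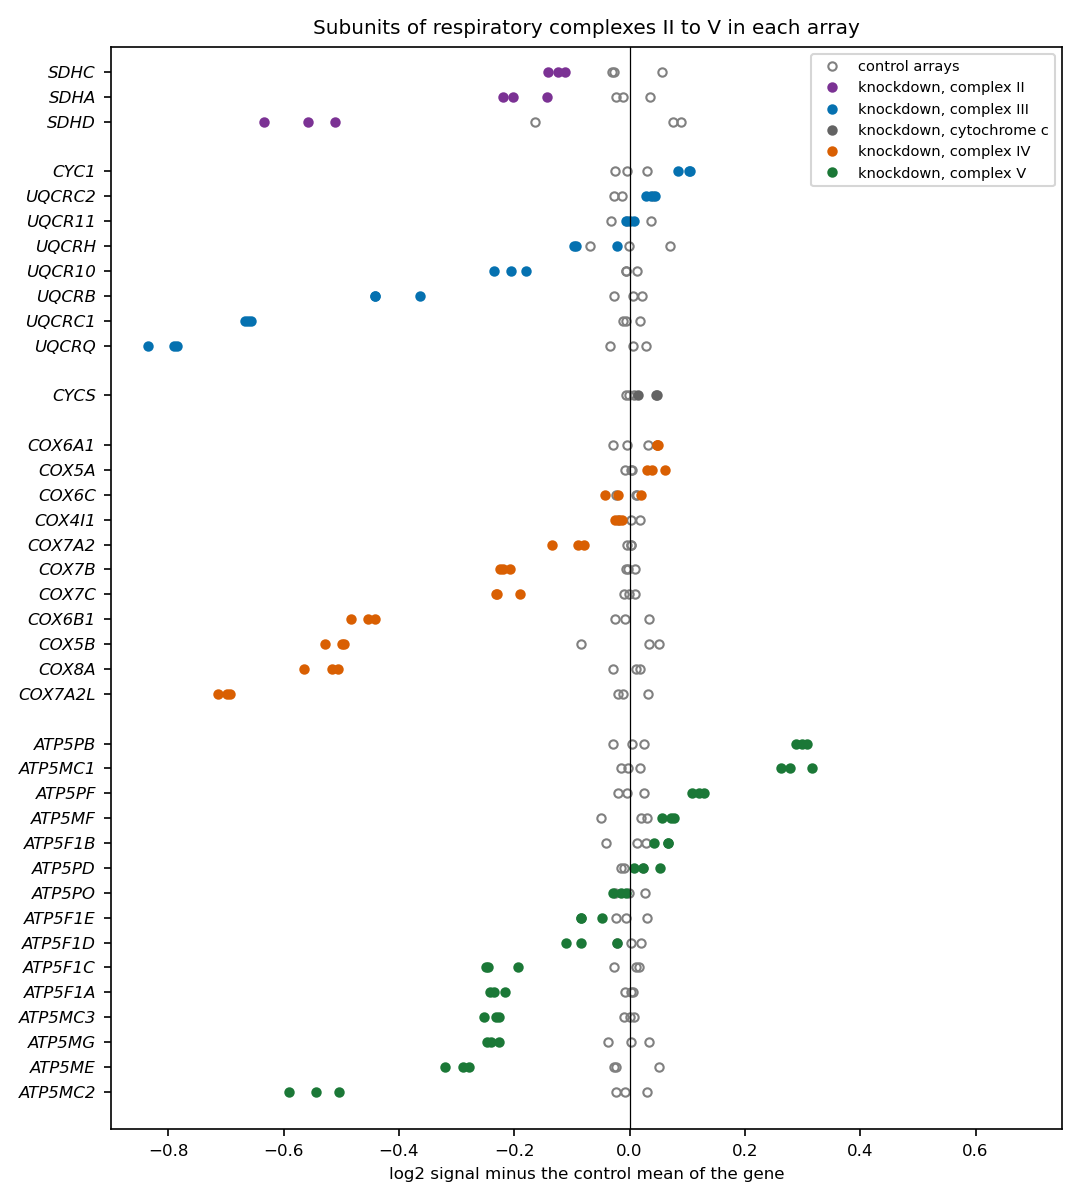
Log2 signal of each subunit in each array, minus its control mean (x axis), for 38 genes by complex (y axis, ordered by change). Open circles are the 3 control arrays and filled circles the 3 knockdown arrays; the knockdown points of UQCRQ, UQCRC1 and COX7A2L lie farthest to the left and those of ATP5PB and ATP5MC1 farthest to the right.

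**Figure D2:**
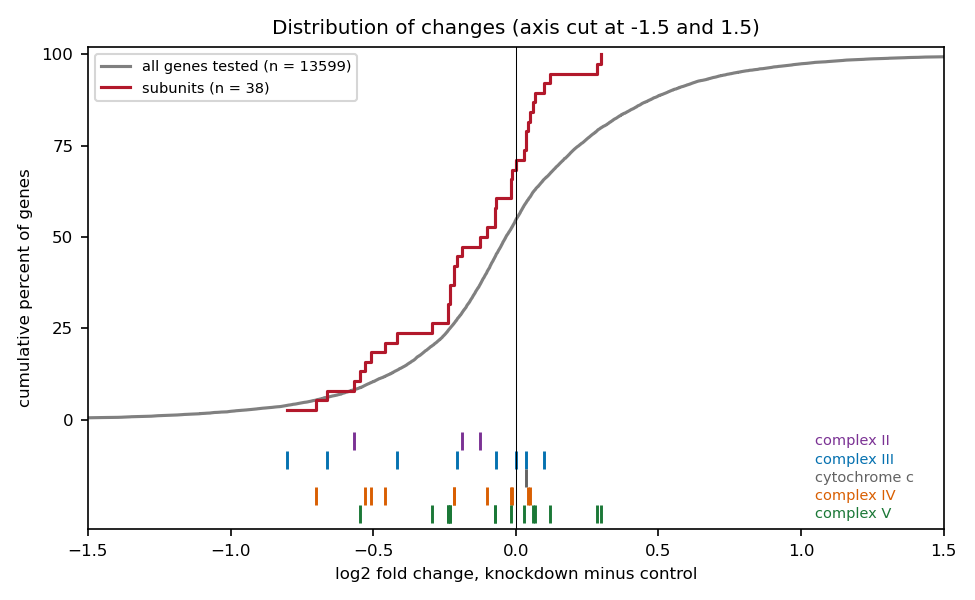
Cumulative percent of genes (y axis) against log2 fold change (x axis) for the 13599 genes tested and the 38 subunits, with a tick for each subunit by complex below. The curve of the subunits lies above that of all genes over most of its range and ends at 0.30, while that of all genes extends farther on both sides.

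Upstream sequences are shown for 5 subunits, 3 that were lower (UQCRQ, UQCRC1 and SDHD) and 2 that were higher (ATP5PB and ATP5MC1), so that genes that moved apart can be set side by side. They are examples and do not stand for all lower or higher subunits. COX7A2L, which fell more than UQCRC1, is not shown. Each is the 250 bases before the annotated start, from RefSeq on GRCh38.p14, on the strand of the gene. UQCRQ lies at chr5:132866392-132866641 on the plus strand, UQCRC1 at chr3:48609647-48609896 on the minus strand, SDHD at chr11:112086623-112086872 on the plus strand, ATP5PB at chr1:111449214-111449463 on the plus strand and ATP5MC1 at chr17:48892537-48892786 on the plus strand. Capitals mark matches, on either strand, to GCGCA, any base, then GCGC (the factor NRF1), CCGGAAG (ETS factors, among them GABPA), ATGGCGG (YY1) or GGGCGG (the GC box of SP1), each counted by itself where matches overlap.
UQCRQ: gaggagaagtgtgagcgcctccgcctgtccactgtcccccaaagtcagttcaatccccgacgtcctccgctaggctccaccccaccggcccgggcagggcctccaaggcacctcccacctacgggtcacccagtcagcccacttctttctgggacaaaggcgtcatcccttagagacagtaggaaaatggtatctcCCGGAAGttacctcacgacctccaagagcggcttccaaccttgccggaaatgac
UQCRC1: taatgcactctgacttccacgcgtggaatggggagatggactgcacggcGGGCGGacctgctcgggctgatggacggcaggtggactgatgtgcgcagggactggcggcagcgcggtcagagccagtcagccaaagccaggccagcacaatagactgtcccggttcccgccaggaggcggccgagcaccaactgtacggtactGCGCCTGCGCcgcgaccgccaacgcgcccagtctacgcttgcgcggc
SDHD: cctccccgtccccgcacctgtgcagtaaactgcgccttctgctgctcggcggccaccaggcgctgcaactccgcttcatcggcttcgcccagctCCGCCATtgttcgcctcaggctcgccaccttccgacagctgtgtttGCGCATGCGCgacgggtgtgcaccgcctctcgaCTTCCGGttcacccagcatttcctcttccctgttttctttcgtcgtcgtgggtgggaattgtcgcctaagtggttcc
ATP5PB: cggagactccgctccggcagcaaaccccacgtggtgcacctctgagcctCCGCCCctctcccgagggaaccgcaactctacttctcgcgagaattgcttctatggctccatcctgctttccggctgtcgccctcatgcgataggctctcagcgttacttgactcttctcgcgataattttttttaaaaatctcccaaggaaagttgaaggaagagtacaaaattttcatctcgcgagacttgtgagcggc
ATP5MC1: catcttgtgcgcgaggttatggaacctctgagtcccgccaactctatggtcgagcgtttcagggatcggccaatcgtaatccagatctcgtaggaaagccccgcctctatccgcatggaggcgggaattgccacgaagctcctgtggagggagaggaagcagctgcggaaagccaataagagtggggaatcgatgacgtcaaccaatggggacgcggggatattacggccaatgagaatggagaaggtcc

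NRF1, GABPA, YY1 and SP1 are transcription factors known to act on nuclear genes of respiration. Windows of 300 bases, 50 of them after the start, were available for 32 of the 40 genes, and the first start listed was used where a gene had several. The NRF1 letters were found in 9 of the 32 (28.1%), against 10.6% of the windows of all genes tested. The ETS letters were found in 14 (43.8%, against 17.4%), the YY1 letters in 6 (18.8%, against 9.55%) and the GC box in 18 (56.3%, against 67.7%). Among the 19 lower subunits with a window, 6 held the NRF1 letters and 8 the ETS letters. Of the 4 higher ones with a window, 0 and 2 did, and of the 7 not called, 2 and 3. Among subunits whose sequence is not shown, COX7A2L (lower) held none of the NRF1, ETS and YY1 letters. ATP5PF and COX6A1 (higher) each held the ETS and the YY1 letters. A match is a run of letters and no measured site.

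Complex II was lower in every subunit measured. Its 3 measured genes all fell, against 34.1% of all genes, with a median of -0.19. SDHD, a membrane anchor with a part in binding coenzyme Q, read 9.39, 9.63 and 9.64 in the control arrays and 8.92, 9.04 and 8.997 in the knockdown arrays. All knockdown arrays lay below all controls, with control replicate 1 the lowest control. The change was -0.57 (SE 0.05, adjusted p = 7.54e-08), and in the fit over all probe sets, where 48.6% of those with 1 gene symbol were called, 5 of 5 were lower, from -0.42 to -0.65, of which a pair hold identical values and count once. SDHA, the flavoprotein that oxidises succinate, read 10.97, 10.92 and 10.91 against 10.71, 10.79 and 10.73, a change of -0.19 (SE 0.03, adjusted p = 9.33e-06). SDHC, the other anchor, changed by -0.13 (SE 0.03, adjusted p = 0.000642), with 4 of its 5 probe sets called lower. The changes of SDHA and SDHC lay within the largest difference of a control probe set.

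Complex III held the subunit with the largest fall and others that did not pass the threshold. Of 8 measured subunits 5 fell (62.5%, against 34.1% of all genes) and 1 rose (12.5%, against 32.4%), with a median of -0.14. UQCRQ, a small subunit beside cytochrome b, read 11.45, 11.47 and 11.41 in control and 10.65, 10.61 and 10.66 in knockdown. The groups lay far apart compared with the spread within them, and the knockdown signal was 57.3% of control (change -0.80, SE 0.02, adjusted p = 4.27e-14). UQCRC1, a core protein of the matrix arm, read 11.17, 11.14 and 11.14 against 10.48, 10.49 and 10.49, which left 63.2% of control (change -0.66, SE 0.02, adjusted p = 1.84e-13). All 3 probe sets of each of these genes were called lower, from -0.42 to -0.81 for UQCRQ and from -0.31 to -0.80 for UQCRC1. The UQCRQ probe set at -0.42 lay below the filter level, with a control mean of 3.34.

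UQCRC2, the partner of UQCRC1 in the core, did not pass the threshold. It read 9.94, 9.95 and 10.01 in control and 9.99, 10.00 and 10.01 in knockdown, a change of 0.04 with a 95% interval from -0.02 to 0.10 (adjusted p = 0.278). The ranges of the groups overlapped, and its other probe set stood at 0.01. The changes of the core genes differed by -0.70 (95% interval -0.78 to -0.62) when taken within each array. An exact two-sided permutation test gave p = 0.1 for this, the smallest that 3 against 3 arrays allow. The pair was picked after its values were seen, as were 5 further pairs compared in the same way, each of which also gave 0.1.

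CYC1, the haem-bearing cytochrome c1 subunit, was the only complex III gene called higher, from 10.70, 10.75 and 10.72 to 10.81, 10.83 and 10.83 (change 0.10, SE 0.02, adjusted p = 0.00214), with all 3 probe sets called higher. Its rise lay within the difference of control probe sets. Among the remaining small subunits, UQCRB read 8.96, 8.97 and 8.92 in control and 8.59, 8.51 and 8.51 in knockdown (change -0.42, SE 0.04, adjusted p = 4.23e-08). UQCR10 changed by -0.21 (SE 0.02, adjusted p = 2.62e-07), also without overlap between the groups but within the largest difference of a control probe set. UQCRH, the hinge protein, was called at -0.07 (adjusted p = 0.0481), but its groups overlapped, neither probe set passed in the fit over all probe sets, and the call was lost without control replicate 2 or 3 or knockdown replicate 1 or 2 (adjusted p between 0.0889 and 0.263). Over all alternatives its adjusted p went up to 0.911. UQCR11 stood at 0.00 (95% interval -0.06 to 0.06, adjusted p = 0.968). A further, dimmer probe set of UQCR11 was called lower, at -0.39, and the mean of both probe sets gave -0.19 (adjusted p = 4.6e-05).

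Cytochrome c, the carrier between complexes III and IV, gave no single answer. The brightest probe set of CYCS read 12.75, 12.75 and 12.76 in control and 12.77, 12.80 and 12.80 in knockdown, a change of 0.04 (adjusted p = 0.0735), without overlap between the groups. Of its other probe sets, 1 was called higher at 0.21 and 1 was called lower at -0.44. The transcript level of CYCS can therefore not be given a direction here.

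Complex IV fell in most of its nuclear subunits. Of 11 subunits 7 fell (63.6%, against 34.1% of all genes) and 1 rose (9.09%, against 32.4%), with a median of -0.22. Of these changes, those of COX7A2, COX7B, COX7C and COX6A1 lay within the largest difference of a control probe set. With quantile normalization, and also without the intensity trend, 7 fell and 0 rose. The 1 rise, of COX6A1, was also lost without control replicate 1 or 2 or any 1 knockdown array. COX7A2L, a relative of COX7A2 that joins complex III to complex IV in supercomplexes, read 10.61, 10.66 and 10.62 in control and 9.93, 9.94 and 9.92 in knockdown. The groups were well separated, and the signal was 61.5% of control (change -0.70, SE 0.03, adjusted p = 4.93e-13). Its other probe set gave -0.71. COX8A, a small subunit that spans the inner membrane, read 11.47, 11.51 and 11.52 against 10.99, 10.94 and 11.00 (change -0.53, SE 0.02, adjusted p = 4.65e-12), and its other probe set gave -0.52.

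COX5B, a zinc-binding subunit on the matrix side, read 10.20, 10.32 and 10.34 in control and 9.79, 9.79 and 9.76 in knockdown (change -0.51, SE 0.03, adjusted p = 8.32e-10). COX6B1, which faces the intermembrane space, read 11.46, 11.52 and 11.48 against 11.00, 11.04 and 11.03 (change -0.46, SE 0.02, adjusted p = 2.14e-11). For these genes too each knockdown array lay below each control array, and each gene had 1 probe set. COX7B and COX7C, small membrane subunits, each changed by -0.22, with adjusted p of 5.47e-08 and 3.53e-08 and no overlap between the groups. Both changes lay just within the largest difference of a control probe set. The other probe set of COX7B gave -0.21.

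COX4I1 and COX5A, which join the complex early in its assembly, did not pass the threshold. COX4I1 changed by -0.02 (95% interval -0.06 to 0.03, adjusted p = 0.459), with groups that overlapped. COX5A read 11.88, 11.88 and 11.86 in control and 11.90, 11.91 and 11.93 in knockdown, a change of 0.04 (adjusted p = 0.0557) that passed with median centring, with a filter at 50% and with the mean of probe sets, at adjusted p between 0.0287 and 0.0425. COX6C stood at -0.01 (adjusted p = 0.602), and another probe set of it was called lower at -0.07 (adjusted p = 0.0245 over all probe sets). COX6A1 was called higher by 0.05 (adjusted p = 0.0331), which reached an adjusted p of up to 0.132 without 1 array, and a dimmer probe set was called lower at -0.22. COX7A2 was called lower by 0.10 on the brightest of 5 probe sets (change -0.10, adjusted p = 0.000534), while 1 other was called higher at 0.09 and 3 were not called. No direction holds over the probe sets of COX6A1 and COX7A2.

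**Figure D3:**
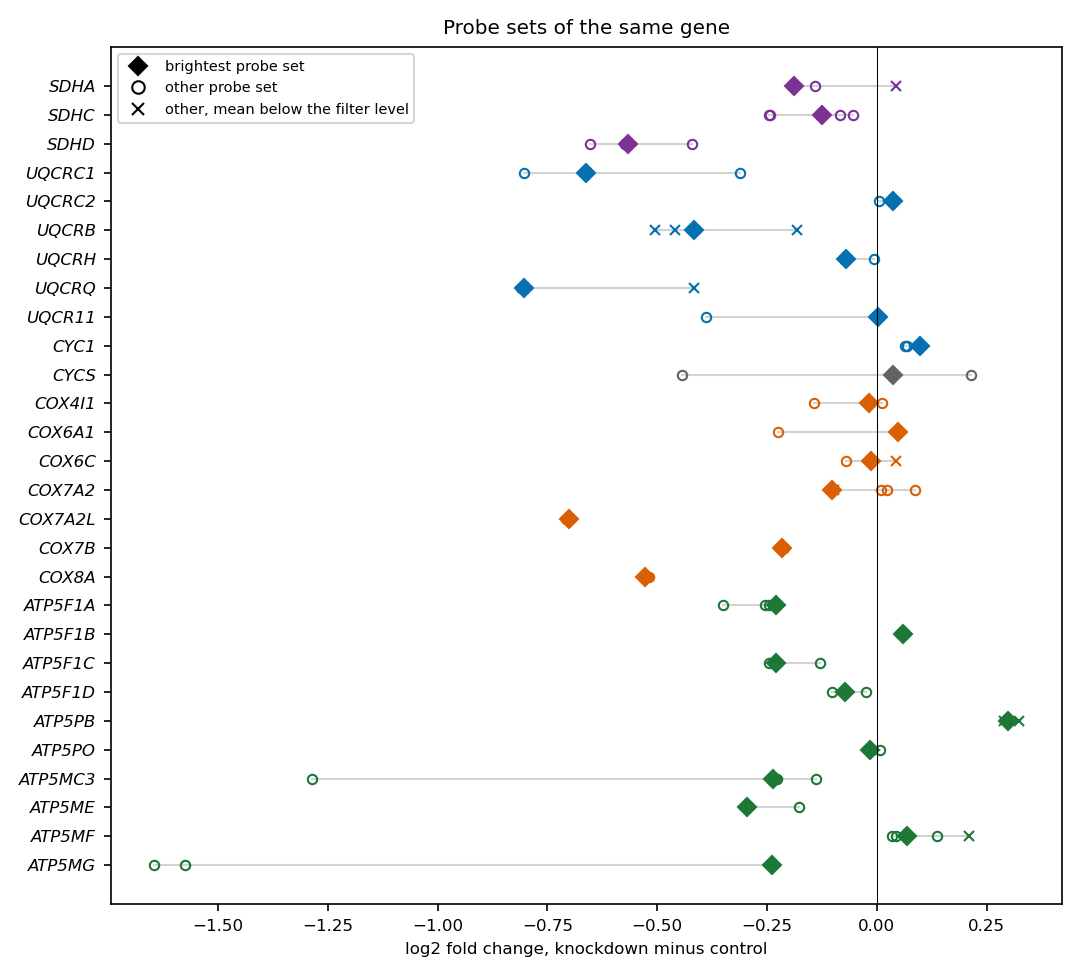
Log2 fold change of every probe set (x axis) of the 28 subunits that have more than 1 (y axis), with the brightest as a filled diamond, others as open circles and those with a mean below the filter level as crosses. The probe sets of COX7A2L, COX8A, COX7B and ATP5PB nearly coincide, while those of ATP5MG and ATP5MC3 reach far below the brightest and those of CYCS lie on either side of 0.

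Complex V went both ways, as did all genes tested. Of 15 subunits 7 fell (46.7%, against 34.1% of all genes) and 5 rose (33.3%, against 32.4%), with a median of -0.07. Among genes at least as bright as the dimmest subunit, 38.3% were lower and 45.7% higher. Of the called changes, those of ATP5F1B, ATP5F1E, ATP5PF and ATP5MF lay within the largest difference of a control probe set. With quantile normalization 8 fell and 3 rose, and without the intensity trend 6 fell and 3 rose. The genes are described by the part of the enzyme they build, and the same shares of all genes are the background for each part.

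In the F1 head and central stalk, which make ATP, 3 of 5 genes fell and 1 rose. ATP5F1A, the alpha subunit, read 11.29, 11.30 and 11.30 in control and 11.08, 11.05 and 11.06 in knockdown (change -0.23, SE 0.02, adjusted p = 5.47e-08), and all 4 probe sets were called lower, from -0.23 to -0.35. ATP5F1B, the catalytic beta subunit, read 12.38, 12.37 and 12.31 against 12.42, 12.39 and 12.42, a call of 0.06 (adjusted p = 0.0187) that was lost with quantile normalization (adjusted p = 0.12), without the intensity trend (adjusted p = 0.183), and without control replicate 3 or knockdown replicate 1 or 3 (adjusted p between 0.0584 and 0.1). ATP5F1C, the gamma subunit of the stalk, changed by -0.23 (SE 0.03, adjusted p = 1.34e-06). ATP5F1E was called lower by a change of -0.07 (adjusted p = 0.00347), which did not pass without the intensity trend (adjusted p = 0.105). ATP5F1D also changed by -0.07 and was just above the threshold (adjusted p = 0.055), and passed in 6 of 16 alternatives; another of its probe sets was called lower at -0.10.

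In the peripheral stalk, which holds the head still, 2 of 4 genes rose and 0 fell. ATP5PB read 11.75, 11.79 and 11.81 in control and 12.07, 12.09 and 12.08 in knockdown, a 1.23-fold rise (change 0.30, SE 0.02, adjusted p = 8.62e-10). All knockdown arrays lay above all controls, and all 4 probe sets were called higher, from 0.29 to 0.32. Those with control means of 4.46 and 4.47 lay below the filter level. ATP5PF read 10.90, 10.89 and 10.93 against 11.03, 11.02 and 11.04 (change 0.12, SE 0.02, adjusted p = 0.000229). ATP5PD stood at 0.03 (95% interval -0.02 to 0.08, adjusted p = 0.306). ATP5PO, which links stalk and head, stood at -0.02 (95% interval -0.06 to 0.03, adjusted p = 0.516) with 0 of its 3 probe sets called.

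The c ring, the turning part in the membrane, is built from 1 protein that 3 genes encode with different import sequences, and these genes did not move together. ATP5MC1 read 9.59, 9.61 and 9.58 in control and 9.91, 9.87 and 9.86 in knockdown (change 0.29, SE 0.03, adjusted p = 1.94e-07). ATP5MC2 read 11.23, 11.25 and 11.28 against 10.75, 10.66 and 10.71 (change -0.55, SE 0.03, adjusted p = 1.13e-11). ATP5MC3 read 11.85, 11.83 and 11.85 against 11.61, 11.62 and 11.59 (change -0.24, SE 0.02, adjusted p = 1.2e-08). The groups did not overlap for any of them, and each kept its call and direction in every alternative in which it was tested. Within arrays the change of ATP5MC1 exceeded that of ATP5MC2 by 0.83 (95% interval 0.75 to 0.91) and that of ATP5MC3 by 0.52 (95% interval 0.47 to 0.58). The exact permutation p was 0.1 for each, the smallest possible, and these pairs too were picked after their values were seen. ATP5MC1 and ATP5MC2 had 1 probe set each, and all 4 probe sets of ATP5MC3 were called lower, from -0.14 to -1.29.

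**Figure D4:**
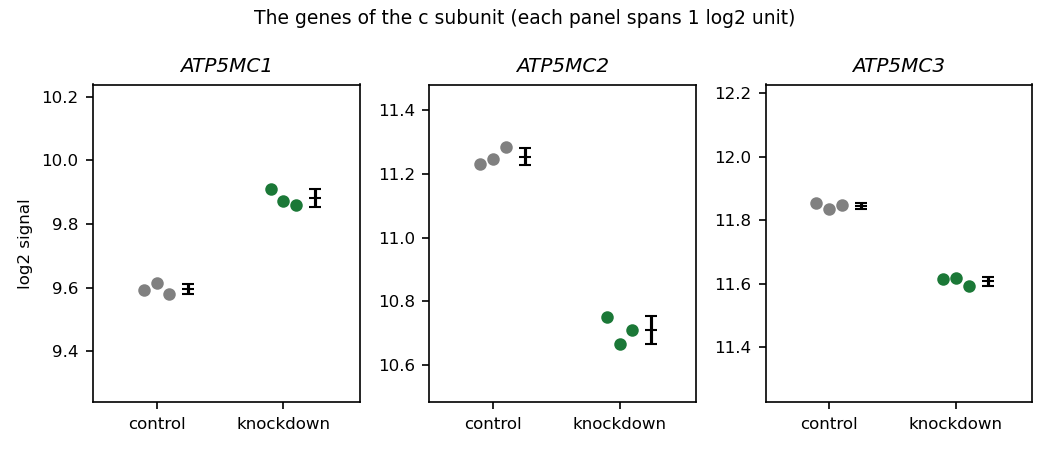
Log2 signal (y axis) of the 3 genes of the c subunit in the control and knockdown arrays (x axis), with each array as a point and the mean and SD (n = 3) beside it; each panel spans the same height. The knockdown points of ATP5MC1 lie above the control points, and those of ATP5MC2 and ATP5MC3 lie below.

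Among the small membrane subunits of complex V, 2 of 3 genes fell and 1 rose. ATP5ME read 10.62, 10.70 and 10.62 in control and 10.33, 10.37 and 10.36 in knockdown (change -0.30, SE 0.03, adjusted p = 6.29e-08). ATP5MF rose by 0.07 (adjusted p = 0.0133), on 2 of 5 probe sets with 0 called lower, and did not pass without control replicate 1 (adjusted p = 0.0743), with quantile normalization (adjusted p = 0.0842) or without the intensity trend (adjusted p = 0.136). ATP5MG, subunit g, read 12.22, 12.30 and 12.26 against 12.03, 12.01 and 12.02 on its brightest probe set (change -0.24, SE 0.02, adjusted p = 2.15e-08). Its other probe sets, at 8.82 and 9.43 in control, changed by -1.58 and -1.65, far more than any brightest probe set of the 38 subunits. Which transcripts of ATP5MG each probe set reads was not tested.

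Over all probe sets, 28 of the 38 subunits had more than 1. In 10 of these every probe set was called lower, in 2 (CYC1 and ATP5PB) every probe set was called higher, and in 2 (CYCS and COX7A2) probe sets were called both ways. Of all single probe sets with 1 gene symbol, 24.4% were called lower and 24.2% higher. These shares are per probe set, and the share of all genes with every probe set called 1 way was not counted. For 23 subunits the brightest probe set carries an Affymetrix suffix that marks probes shared with other transcripts or similar sequences. Without such probe sets 29 subunits could be tested, of which 17 were lower and 3 higher, against 31.3% and 31.7% of all genes so tested.

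Genes that serve these complexes without being members of them were taken from lists chosen with earlier results of these data known. Of 43 tested assembly factors of complexes II to V, 17 rose (39.5%) and 13 fell (30.2%), with a median of 0.05; among all genes tested, 32.4% rose and 34.1% fell with a median of -0.03, which is the background for each list that follows. HCCS, the cytochrome c haem lyase, rose from 7.58 ± 0.06 to 9.21 ± 0.04 (mean ± SD, n = 3 each), a 3.10-fold rise (adjusted p = 6.89e-15) with both its probe sets called higher. COX11, which helps to deliver copper to complex IV, rose from 8.52 ± 0.03 to 9.52 ± 0.04 (adjusted p = 3.16e-13, all 6 probe sets higher). LYRM7, a chaperone of the iron-sulphur protein of complex III, rose by 0.76 (adjusted p = 9.7e-09), and HIGD1A fell by 0.71 (adjusted p = 6.47e-08). The rises of HCCS and COX11 were larger than the change of the brightest probe set of any subunit.

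Of 7 tested further subunits and tissue isoforms, 2 rose (28.6%) and 1 fell (14.3%), with a median of 0.03. ATP5IF1, the inhibitor of ATP hydrolysis by complex V, rose by 0.33 (adjusted p = 1.81e-08) and ATP5MK by 0.13 (adjusted p = 0.000613). ATP5MJ fell by 0.43 on its brightest probe set (adjusted p = 5.18e-09), although only 3 of its 7 probe sets were called lower and 1 was called higher. The subunits of the mitochondrial genome were not analysed here.

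Of 12 tested regulators of nuclear respiratory genes, 6 rose, against 32.4% of all genes, and 4 fell (33.3%, against 34.1%), with a median of 0.11. TFAM, which packages and helps to transcribe mitochondrial DNA, rose by 0.51 (adjusted p = 1.01e-09, all 3 probe sets higher), and the coactivator PPRC1 rose by 0.47 (adjusted p = 6.18e-08). GABPA fell by 0.58 (adjusted p = 4.54e-08) on 1 of 2 probe sets and SP1 fell by 0.44 (adjusted p = 4.72e-08) on 2 of 3. NRF1 itself stood at 0.02 (adjusted p = 0.781), and YY1 rose by 0.24 (adjusted p = 3.28e-07).

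Of 19 tested genes that feed electrons to coenzyme Q or make it, 8 fell (42.1%, against 34.1% of all genes) and 7 rose (36.8%, against 32.4%), with a median of 0.04. COQ5, a methyltransferase of the pathway, fell from 8.89 ± 0.02 to 7.56 ± 0.01, which left 39.8% of control (adjusted p = 3.28e-14, all 3 probe sets lower). COQ2, which joins the ring to its side chain, fell by 1.19 (adjusted p = 8.22e-13, all 3 probe sets lower), COQ9 fell by 1.07 (adjusted p = 2.84e-12) on 1 of 4 probe sets, and COQ7 rose by 0.61 (adjusted p = 9.59e-08). Of 6 tested carriers and channels for ATP, ADP and phosphate, 5 fell (83.3%, against 34.1% of all genes) and 1 rose (16.7%, against 32.4%), with a median of -0.42. The ADP/ATP carriers SLC25A4 and SLC25A5 fell by 0.51 (adjusted p = 1.49e-06) and 0.44 (adjusted p = 2.64e-12), the outer membrane channel VDAC1 fell by 0.49 (adjusted p = 5.47e-09), and the phosphate carrier SLC25A3 fell by 0.41 (adjusted p = 5.62e-11, all 6 probe sets lower).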

How the data were processed

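The authors deposited 1 table of log2 signals for 49395 probe sets on 6 Affymetrix arrays, 3 of knockdown and 3 of parental cells. The submitters' processing notes name MAS5, with no version, and no source used here gives the background, summary or log steps. The scale was read from the range of values, and the arrays were taken as already scaled. GEO's platform annotation gave the gene of each probe set, and those with 1 symbol were used. Each gene took its probe set with the highest mean over 6 arrays, the lowest 25% of genes were left out, and limma 3.58.1 in R 4.3.3 (lmFit, eBayes with an intensity trend, Benjamini-Hochberg over 13599 genes) compared the groups at an adjusted p of 0.05. Every member was named. Of other lists up to 4 genes with the largest called change were named, and NRF1 and YY1 besides, as factors of the motifs. The rule for the members uses names and roles only, but the members and lists were chosen with earlier results of these data known. The number of arrays limits the precision, and a change shared by all genes cannot be measured.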

Additional observations from a re-analysis of the deposited data

How the results depend on the processing

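Of 599 values of single subunits under 16 alternatives, 555 kept their side of the threshold and, where called, their direction. A further 27 lost their call, 12 gained one, and 5 changed sign with a call before or after. Sign changes of subunits that stayed uncalled were not counted, as for ATP5PO, at -0.02 and, without probe sets of suffix s_at and x_at, at 0.01. The changes of call fell on 10 subunits. With the mean of probe sets UQCR11 went to -0.19 and COX6A1 to -0.088. Without probe sets of suffix s_at and x_at, an alternative chosen after seeing the data, CYCS went to -0.44, COX6A1 to -0.22 and COX7A2 to 0.0091, each on another probe set. In that alternative 3 subunits rose, with 1 lower in complex II, 3 lower in complex III, 0 higher in complex IV and 2 higher in complex V; it tested 29 subunits. With quantile normalization, and without the intensity trend, 4 subunits rose in all, 0 of complex IV and 3 of complex V. The filter at 50% and median centring each gave 2 higher in complex IV. With 1 array left out, complex IV had 0 to 1 higher (1 only without control replicate 3), and the subunits in all 5 to 6 higher and 21 to 22 lower. The replicate number as a block gave 23 lower and 7 higher subunits, and 4816 lower and 4491 higher genes. Deviations of same-numbered arrays correlated at 0.08, 0.13 and 0.23, and control replicate 1 correlated best with knockdown replicate 2, at 0.10, while the other 5 arrays each correlated best with their own number. The numbers were not taken to pair the arrays, since 1 of the 3 values lies under the limit of 0.1 set for this. The causes were not tested.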
